A study of Rattus norvegicus with 6 samples.

Results

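Marker genes of microglia, blood vessels, meninges and platelets were followed on arrays of cultured rat cortical neurons, to describe what trace of those cells the RNA held and whether it differed after exposure to the complement protein C1q. The set named 33 genes and was defined by gene symbol, and it was chosen with earlier results of these data known. It comprised 13 genes of microglia, 9 of endothelium, 3 of mural cells, 6 of meningeal cells and fibroblasts, and 2 of platelets. Of these, 31 genes were measured, each by the 1 probe set annotated to that gene alone, out of 14506 genes measured in this way on the array. No probe set named Vwf, the von Willebrand factor gene, or Foxc1, a transcription factor gene of the meninges, as its only gene. Neither is described further.

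The neurons came from the cortex of Sprague-Dawley rat embryos of day 18 and were grown for 3 days in the medium that the labels call NB-N2. In the C1q group, the neurons behind 3 arrays were exposed to 10 nM C1q for 3 h, and the other group comprised 3 arrays of untreated neurons. The labels do not say whether the arrays of a group came from separate cultures or embryos, or whether the medium held an agent against dividing cells, so that p-values below reflect array-to-array spread alone, possibly of technical origin.

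A dissected embryonic cortex can carry blood vessels and part of the meninges with it. Microglia are the resident macrophages of the brain and depend on the receptor Csf1r for survival, endothelial cells line the vessels and form the blood-brain barrier through claudins and cadherins, mural cells wrap the vessels and answer to platelet-derived growth factor, and meningeal fibroblasts lay down fibrillar collagen. Microglia are also the main source of C1q within the brain.

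Values are the deposited intensities on a linear scale, whose array medians lay between 147 and 155. No detection calls were used, so a floor was set from genes of other organs, such as digestive enzymes, milk proteins and sperm proteins, of which 69 of 80 listed were measured. On each array the floor was the 90th percentile of these genes, which lay between 112 and 149, and their median lay between 48.1 and 60.6. All 12 neuron markers examined, from Nefl at percentile 71.2 of all probe sets to Dcx at percentile 99.7, lay above the floor on all 6 arrays. These genes mark neurons in general, and none of them is particular to the cortex. Probe sets differ in how brightly they report a transcript, so a position against the floor does not order the amounts of different mRNAs.

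Most of the 31 markers of non-neural cells lay below that floor. On no array did 22 of them exceed it, 5 did so on some arrays, and 4 did so on all 6, the actin gene Acta2 and the collagen genes Col1a1, Col1a2 and Col3a1. Of the markers, 29.0% exceeded the floor on at least 1 array and 12.9% on all 6, against 63.3% and 57.3% of all 14506 genes. Of the 31, 7 markers, Itgam, Ptprc, P2ry12, Cdh5, Tek, Dcn and Lum, lay below the median of the genes of other organs on every array. The counts depended on the floor: with the 75th percentile of the same genes 18 markers exceeded it on at least 1 array and 13 on all 6, and with their highest value Acta2 alone did so. In RNA of a whole culture, fewer cells of a type and less RNA per cell cannot be told apart.

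**Figure D1:**
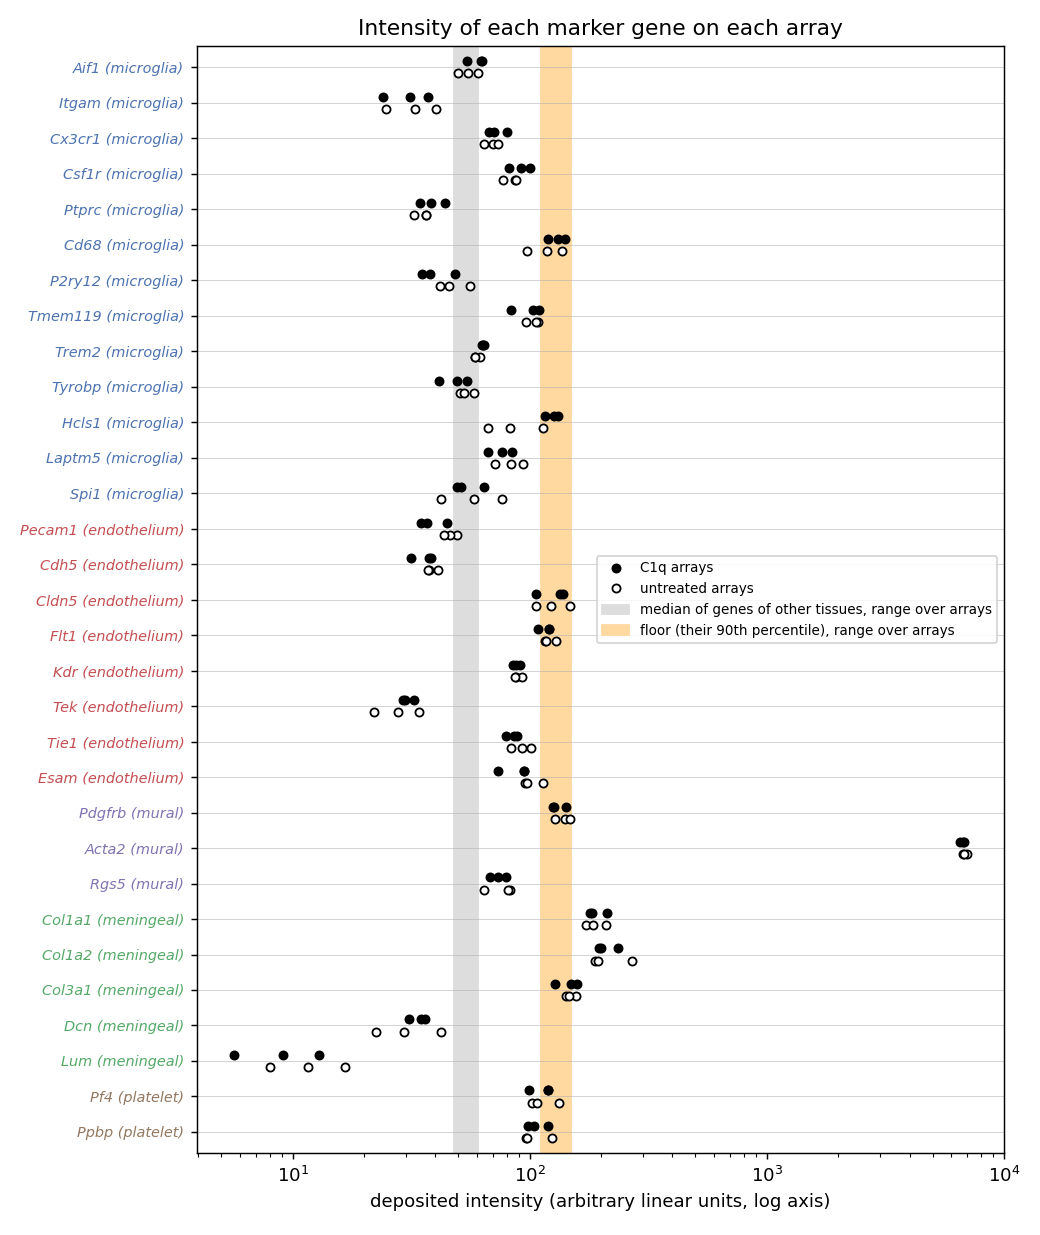
Deposited intensity of the 31 measured markers, 1 row per gene, coloured by cell type, on a log axis. Filled points are the 3 C1q arrays and open points the 3 untreated arrays; the grey band spans the array medians of genes of other organs (48.1 to 60.6) and the orange band the floor (112 to 149). Acta2 and the collagen genes Col1a1, Col1a2 and Col3a1 exceeded the floor of their array throughout, and Acta2 stood far to the right.

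Of the 13 microglial markers, 11 were above the floor on no array, 2 were above it on some, and none on all 6. Aif1, which encodes the calcium-binding protein Iba1 used to stain microglia, read 54.4, 62.3 and 62.9 on C1q arrays 1 to 3, against 49.6, 60.3 and 54.8 on untreated arrays 1 to 3. Its values lay close to the median of the genes of other organs, above it on 5 of 6 arrays. Csf1r, the receptor for colony-stimulating factor, read 91.9, 100.1 and 82.0 on C1q arrays 1 to 3, against 77.3, 86.5 and 87.8 on untreated arrays 1 to 3. Cx3cr1, the fractalkine receptor gene, read 80.5, 71.0 and 67.5 on C1q arrays 1 to 3, against 69.9, 73.8 and 64.3 on untreated arrays 1 to 3. The values of Csf1r and Cx3cr1 lay between that median and the floor on all 6 arrays, and the groups overlapped for both.

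Itgam, Ptprc and P2ry12 were the dimmest of the microglial set, all below the median of the genes of other organs on every array. Itgam, the CD11b integrin chain, read 31.2, 37.4 and 24.1 on C1q arrays 1 to 3, against 24.9, 40.2 and 32.8 on untreated arrays 1 to 3. Ptprc encodes CD45, the phosphatase carried by all white blood cells, and read 44.1, 34.4 and 38.5 on C1q arrays 1 to 3, against 32.4, 36.6 and 36.6 on untreated arrays 1 to 3. P2ry12, the purinergic receptor that marks resting microglia, read 35.2, 37.8 and 48.2 on C1q arrays 1 to 3, against 41.7, 55.8 and 45.5 on untreated arrays 1 to 3. No array held a high value of any of the 3, and the groups overlapped.

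Spi1 encodes PU.1, the transcription factor that specifies myeloid cells, and read 63.9, 49.1 and 51.4 on C1q arrays 1 to 3, against 42.1, 58.3 and 76.1 on untreated arrays 1 to 3. The highest and the lowest value were both on untreated arrays. The receptor gene Trem2 ranged over the 6 arrays from 58.7 to 64.3, its signalling adaptor Tyrobp from 41.3 to 58.1, the lysosomal membrane protein gene Laptm5 from 66.5 to 93.7 and the microglial surface protein gene Tmem119 from 83.2 to 109, all below the floor on every array. The highest intensity of Trem2 was only 1.10 times its lowest.

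Cd68, a lysosomal glycoprotein of macrophages, and Hcls1, a cortactin-like actin regulator of blood cells, were the microglial markers that reached the floor. Cd68 read 132, 140.4 and 119 on C1q arrays 1 to 3, against 136, 97.2 and 119 on untreated arrays 1 to 3. It exceeded the floor on C1q arrays 1 and 2 and on untreated array 1, and was lowest on untreated array 2. Hcls1 read 116, 127 and 131 on C1q arrays 1 to 3, against 66.9, 82.2 and 114 on untreated arrays 1 to 3. Its C1q arrays all lay above its untreated arrays, and only C1q array 2 lay above the floor. The lowest C1q value was 1.02 times the value of untreated array 3, whereas untreated arrays 1 and 2 were far lower.

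The upstream sequence of Itgam is shown because the gene, one of the dimmest here, is a classic myeloid marker and a known target of PU.1. The 250 bases before its annotated start are given from RefSeq, build GRCr8, chr1:192089342-192089591, plus strand, with the hexamer GAGGAA, a core of sites bound by PU.1, in capitals on either strand (as TTCCTC where it lies on the minus strand).
Itgam: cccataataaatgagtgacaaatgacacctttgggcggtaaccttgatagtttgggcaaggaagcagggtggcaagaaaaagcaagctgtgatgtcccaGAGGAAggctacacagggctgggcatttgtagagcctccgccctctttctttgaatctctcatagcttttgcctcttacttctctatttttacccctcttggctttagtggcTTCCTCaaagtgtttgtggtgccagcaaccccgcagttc
The hexamer begins 151 and 39 bases before the start. Promoters were in the table for 18 of the 33 genes, 8 of them microglial, and the same 250 bases held the hexamer on either strand in 6 of those 8 and in 4 of the 10 promoters of the other cell types, Acta2, Flt1, Rgs5 and Tie1, against 23.3% of 33469 promoters. A match is a description of the letters and not a bound site.

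Of 8 measured endothelial markers, 6 exceeded the floor on no array and none on all 6. The adhesion molecules that define endothelium were dim. Pecam1, which encodes CD31, read 37.1, 34.7 and 44.9 on C1q arrays 1 to 3, against 49.2, 46.2 and 43.6 on untreated arrays 1 to 3. Cdh5, the vascular endothelial cadherin gene, read 37.7, 38.4 and 31.7 on C1q arrays 1 to 3, against 41.0, 37.6 and 37.4 on untreated arrays 1 to 3. Tek, the angiopoietin receptor gene, read 29.1, 29.7 and 32.5 on C1q arrays 1 to 3, against 27.9, 22.0 and 34.1 on untreated arrays 1 to 3. Cdh5 and Tek lay below the median of the genes of other organs on every array, and Pecam1 on 5 of 6.

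Cldn5, the claudin of the blood-brain barrier, read 134, 106 and 138 on C1q arrays 1 to 3, against 106, 148 and 124 on untreated arrays 1 to 3. It exceeded the floor on 3 arrays, C1q arrays 1 and 3 and untreated array 3, although its highest value was on untreated array 2, where the floor itself was highest. Flt1, a receptor for vascular endothelial growth factor that neurons and other cells can also carry, read 121, 108 and 121 on C1q arrays 1 to 3, against 116, 129 and 117 on untreated arrays 1 to 3 and exceeded the floor on C1q array 1 alone. Kdr, the other main receptor for that factor, ranged from 85.3 to 93.1 and varied least of the endothelial set, its highest intensity being 1.09 times its lowest. Tie1, an orphan receptor related to Tek, ranged from 79.7 to 102. Kdr and Tie1 stayed below the floor.

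Esam, an adhesion molecule of endothelial junctions and platelets, read 94.2, 73.6 and 94.8 on C1q arrays 1 to 3, against 95.4, 114 and 97.5 on untreated arrays 1 to 3. All 3 C1q values lay below the 3 untreated values, with C1q array 2 the lowest and untreated array 2 the highest. The lowest untreated value was 1.01 times the highest C1q value.

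Among mural markers, Acta2 stood apart. Acta2 encodes the smooth muscle alpha-actin of arteries, pericytes and myofibroblasts, and read 6753, 6533 and 6686 on C1q arrays 1 to 3, against 6732, 7013 and 6765 on untreated arrays 1 to 3. This placed it at percentile 99.4 of all probe sets. Of the other contractile genes of smooth muscle, Tagln, Myh11 and Cnn1 were near or below the floor, and the actin gene Actg2 was above it. Tagln, which encodes transgelin, averaged 49.7 ± 0.846 on C1q arrays and 58.2 ± 3.77 on untreated arrays (SD, n = 3 each). Myh11, the smooth muscle myosin heavy chain gene, averaged 132 ± 2.03 on C1q arrays and 144 ± 6.13 on untreated arrays (SD, n = 3 each) and exceeded the floor on 4 arrays. Cnn1, which encodes calponin, ranged from 48.6 to 70.6, and it was named after its values were seen, as were the actin genes that follow.

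Actin transcripts share long stretches of coding sequence, so the value of any one actin probe set is uncertain. The cytoplasmic actin genes Actb and Actg1 averaged 13699 and 17513 on C1q arrays and 13638 and 17519 on untreated arrays. The muscle actin genes Acta1 and Actc1 ranged over the 6 arrays from 253 to 306 and from 275 to 297, above the floor on all 6. Actg2, the smooth muscle gamma-actin gene, read 235, 238 and 268 on C1q arrays 1 to 3, against 288, 277 and 273 on untreated arrays 1 to 3, also above the floor on all 6. Its C1q arrays all lay below its untreated arrays, at an estimated 0.888-fold (95% interval 0.790 to 1.000), with an unadjusted p of 0.0495 and an adjusted p of 0.99998 in the limma fit over all probe sets. Whether the Acta2 probes also bind cytoplasmic actin transcripts was not tested.

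The sequence upstream of Acta2 is shown because this gene alone among the mural markers was bright. The 250 bases before its annotated start are from RefSeq, GRCr8, chr1:241172504-241172753, minus strand, printed in the direction of the gene. Capitals mark matches to the CArG box, the element bound by serum response factor, allowing 1 inner base to be C or G.
Acta2: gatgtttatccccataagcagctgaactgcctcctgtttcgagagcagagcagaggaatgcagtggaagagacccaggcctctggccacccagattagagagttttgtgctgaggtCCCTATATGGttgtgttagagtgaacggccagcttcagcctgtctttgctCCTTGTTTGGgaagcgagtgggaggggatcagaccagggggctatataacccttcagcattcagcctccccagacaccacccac
The matches begin 134 and 84 bases before the start and each reads as a match on both strands. An exact CArG box was absent from this window. Matches with 1 inner C or G occurred in 6.84% of 33469 promoters and exact ones in 1.5%. Of the 18 promoters of the set, 3 held the former, those of Acta2, Kdr and Tie1. That of Ppbp alone held an exact one. Kdr, Tie1 and Ppbp exceeded the floor on no array.

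The pericyte genes lay near or below the floor. Pdgfrb, the receptor through which pericytes are recruited, read 127, 143 and 126 on C1q arrays 1 to 3, against 141, 147 and 127 on untreated arrays 1 to 3. It exceeded the floor on 4 arrays, C1q arrays 1 and 2 and untreated arrays 1 and 3, with values that the groups shared. Rgs5, a regulator of G protein signalling in pericytes, read 73.4, 68.3 and 79.5 on C1q arrays 1 to 3, against 64.1, 82.7 and 81.4 on untreated arrays 1 to 3, below the floor throughout. Pdgfrb lies next to Csf1r in the RefSeq gene order with no gene between, so that genes of different cell types are neighbours here, of which Csf1r exceeded the floor on no array.

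The fibrillar collagen genes were the only meningeal markers above the floor, and they were so on all 6 arrays. Col1a1 and Col1a2 encode the chains of type I collagen. Col1a1 read 183, 179.5 and 212 on C1q arrays 1 to 3, against 172, 210.0 and 184 on untreated arrays 1 to 3. Col1a2 read 197, 200.2 and 236 on C1q arrays 1 to 3, against 189, 271 and 195 on untreated arrays 1 to 3. Col3a1, which encodes type III collagen, read 149.9, 128 and 159 on C1q arrays 1 to 3, against 142, 157 and 147 on untreated arrays 1 to 3. All 3 genes were higher on C1q array 3 than on C1q arrays 1 and 2, and higher on untreated array 2 than on untreated arrays 1 and 3. They lay between percentiles 49.7 and 56.4 of all probe sets. Some genes of other organs, such as the lens gene Crybb3 and the sperm gene Prm1, were likewise above the floor on all 6 arrays.

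Dcn and Lum, the genes of the collagen-binding proteoglycans decorin and lumican, were at the other end. Dcn read 36.0, 34.7 and 31.0 on C1q arrays 1 to 3, against 22.5, 29.5 and 42.1 on untreated arrays 1 to 3. Lum read 12.9, 9.07 and 5.64 on C1q arrays 1 to 3, against 11.6, 8.05 and 16.6 on untreated arrays 1 to 3, at percentile 3.09, the lowest of the 31 markers. These neighbouring genes, with none between them in the RefSeq order, lay below the median of the genes of other organs on every array. Collagen above the floor was thus accompanied by fibroblast proteoglycan genes below it on the same 6 arrays.

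The upstream sequence of Col1a2 is shown as that of the brightest collagen gene of the set. It is from RefSeq, GRCr8, chr4:33518307-33518556, plus strand, with TATAAA and the reverse complement of CCAAT in capitals.
Col1a2: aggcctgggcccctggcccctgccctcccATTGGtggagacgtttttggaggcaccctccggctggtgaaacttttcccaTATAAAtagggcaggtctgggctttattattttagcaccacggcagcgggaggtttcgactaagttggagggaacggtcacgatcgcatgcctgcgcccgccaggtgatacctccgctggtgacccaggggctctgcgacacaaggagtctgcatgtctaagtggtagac
TATAAA begins 170 bases and the CCAAT motif 221 bases before the annotated start. On either strand, TATAAA was held by 12.9% of 33469 promoters and CCAAT by 34.0%. Of the 18 promoters of the set, 5 held TATAAA and 9 held CCAAT.

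The platelet chemokine genes Pf4 and Ppbp, which lie side by side with no gene between them, stayed below the floor on all 6 arrays. Pf4 read 119, 98.9 and 119.6 on C1q arrays 1 to 3, against 103, 132 and 108 on untreated arrays 1 to 3. Ppbp read 119, 98.2 and 104 on C1q arrays 1 to 3, against 96.5, 124 and 97.6 on untreated arrays 1 to 3. Both were highest on untreated array 2 and in both the groups overlapped.

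Further genes of the same cell types gave a similar picture. Of 99 listed, 84 were measured, of which 63 exceeded the floor on no array and 13 on all 6. Among 25 further genes of microglia and macrophages, 23 lay below the floor throughout. The exceptions were Coro1a and Selplg. Coro1a, a coronin that neurons express as well, averaged 1786 ± 23.7 on C1q arrays and 1787 ± 69.8 on untreated arrays (SD, n = 3 each). Selplg, the P-selectin ligand gene, averaged 149 ± 9.52 on C1q arrays and 157 ± 13.7 on untreated arrays (SD, n = 3 each). The subunit genes of C1q itself, named after their values were seen, ranged from 76.8 to 102 for C1qa, and from 92.8 to 119 for C1qb, and C1qc averaged 82.3 ± 2.19 on C1q arrays and 88.3 ± 8.97 on untreated arrays (SD, n = 3 each), all below the floor on every array. C1q was supplied to the cultures as protein, whereas these values are intensities of probe sets for its transcripts. Below the floor, they hold an unknown share of background.

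Among 20 further endothelial genes, 5 exceeded the floor on all 6 arrays, namely Slc2a1, Mfsd2a, Nos3, Ramp2 and Plvap. Plvap was named after its values were seen and ranged from 148 to 201. Slc2a1, the glucose transporter of the blood-brain barrier and of many other cells, averaged 428 ± 6.17 on C1q arrays and 444 ± 11.1 on untreated arrays (SD, n = 3 each). Mfsd2a, a lipid transporter, averaged 402 ± 30.4 on C1q arrays and 391 ± 19.6 on untreated arrays (SD, n = 3 each). Nos3, the endothelial nitric oxide synthase gene, averaged 237 ± 14.8 on C1q arrays and 259 ± 34.7 on untreated arrays (SD, n = 3 each). Among 14 further mural genes only Mcam, an adhesion molecule also made by other cells, did so, at 242 ± 8.07 on C1q arrays and 263 ± 18.3 on untreated arrays (SD, n = 3 each); Notch3, a receptor of arterial smooth muscle, exceeded it on 5 arrays.

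Among 20 further meningeal and fibroblast genes, 5 exceeded the floor on all 6 arrays, namely Vim, Foxd1, Lox, Fbln1 and Fn1. Fbln1 and Fn1 were named after their values were seen and ranged from 249 to 276 and from 223 to 294. Vim encodes vimentin, which radial glia also make, and averaged 2968 ± 45.5 on C1q arrays and 3009.7 ± 107 on untreated arrays (SD, n = 3 each). Foxd1, a transcription factor gene, averaged 430.3 ± 20.4 on C1q arrays and 456 ± 21.6 on untreated arrays (SD, n = 3 each). Lox, which encodes the enzyme that cross-links collagen, averaged 382 ± 28.0 on C1q arrays and 398 ± 17.2 on untreated arrays (SD, n = 3 each). Of 5 further platelet genes, Gp9, a subunit of a platelet adhesion receptor, and Gfi1b, a transcription factor gene of the megakaryocyte and red cell lineages, exceeded the floor on 5 arrays each and the other 3 genes on none. Gp9 ranged over the 6 arrays from 125 to 164 and Gfi1b from 125 to 178.

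**Figure D2:**
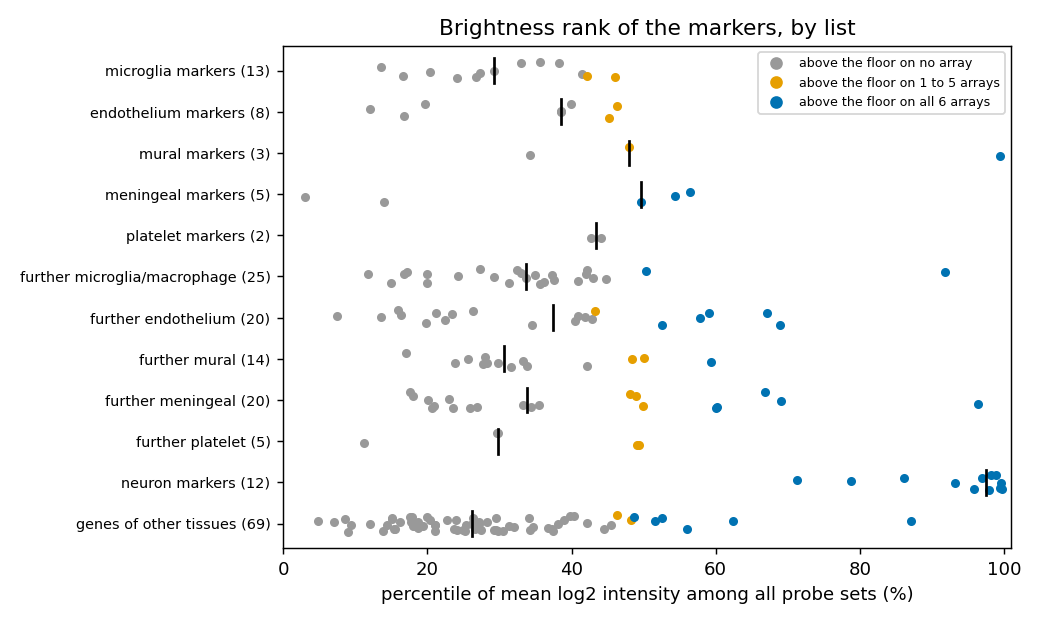
Percentile of the mean log2 intensity among all 29215 probe sets for each measured gene, by list; vertical bars are list medians and colours give the number of arrays on which the gene exceeded the floor. The microglial markers had a median at percentile 29.2 and the neuron markers at 97.5; Acta2 is the bright mural point at 99.4.

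No array was the highest for every marker. On untreated array 2, 15 of the 31 markers had their highest value, or 48.4%, which compared with 53.6% of the genes of other organs and 35.0% of the 12585 probe sets above the floor on no array. Of 14431 probe sets above it on all 6 arrays, 12.3% were highest there. The lowest value fell on C1q array 2 for 11 markers and on untreated array 1 for another 11. The median deviation of the 31 markers from their own 6-array mean was 0.03, -0.07 and 0.03 log2 units on C1q arrays 1 to 3, and -0.05, 0.08 and 0.00 on untreated arrays 1 to 3. For the genes of other organs it was -0.02, -0.06 and 0.02 on C1q arrays and -0.08, 0.12 and -0.01 on untreated arrays. On untreated array 2 it was 0.08 for the probe sets above the floor on no array and -0.035 for those above it on all 6. The upward shift on that array was thus one of dim probe sets. Its part in the values of single markers was not tested.

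By cell type, 5 of 8 endothelial markers, all 3 mural markers and both platelet genes were highest on untreated array 2. So were 4 of 13 microglial markers, or 30.8%, and 1 of 5 meningeal markers. Of all probe sets 23.3% were highest there, and of those above the floor on no array 35.0%. With lists this short, a difference between cell types cannot be read from these counts. For 6 of 13 microglial markers the lowest value lay on untreated array 1. Cd68 and Tek ran against the common order, with their lowest values on untreated array 2. The widest spread over the 6 arrays was that of Lum, whose highest intensity was 2.94 times its lowest, followed by Hcls1 at 1.96 times and Dcn at 1.87 times, and the narrowest that of Acta2 at 1.07 times.

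**Figure D3:**
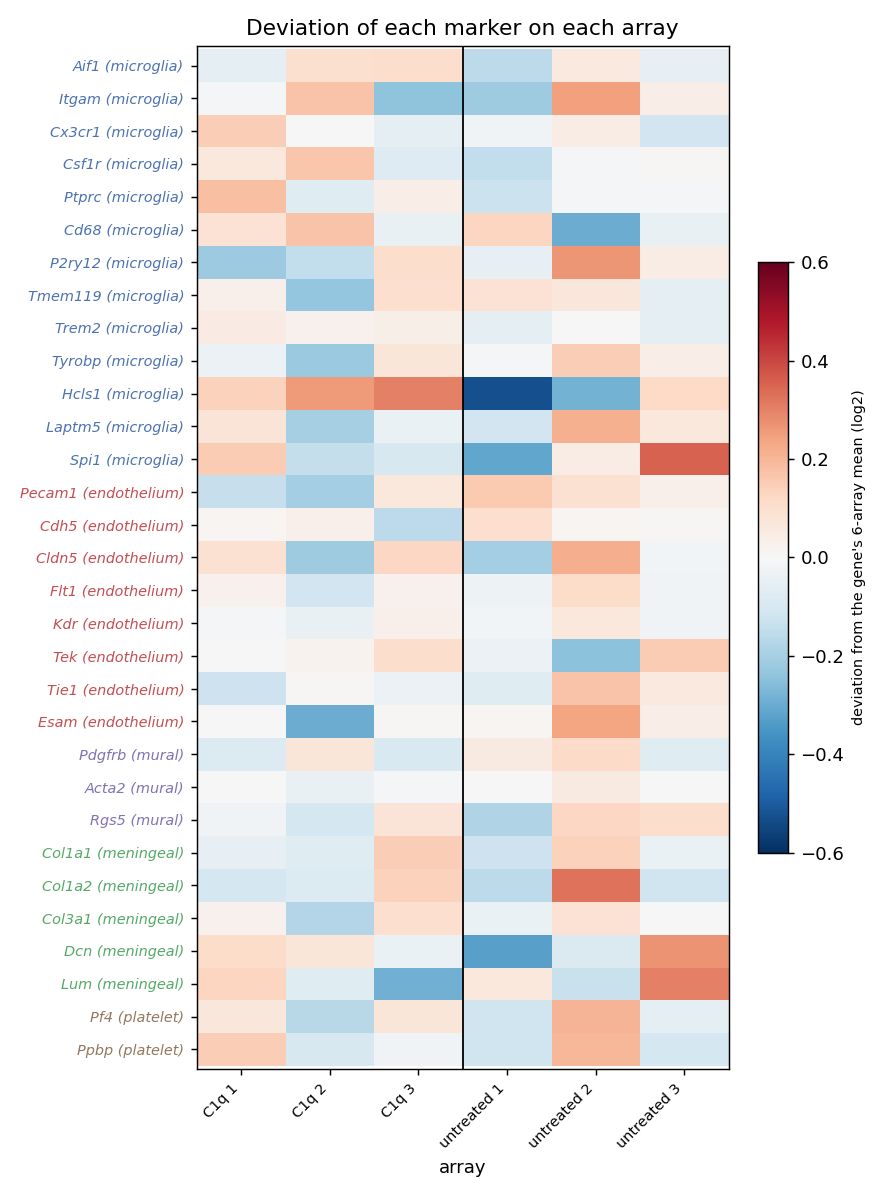
Deviation of each marker from its own mean over the 6 arrays, in log2(intensity + 16) units, red above and blue below, with the 3 C1q arrays left of the line and the 3 untreated arrays right of it. The column of untreated array 2 is mostly red (15 of 31 markers highest there), and the row of Hcls1 is blue on untreated arrays 1 and 2 only.

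None of the 31 markers was called as changed after C1q in a limma fit over all 29215 probe sets on log2(intensity + 16). The Benjamini-Hochberg adjustment covered every one of them, and a gene was called if its adjusted p fell under 0.05. With n = 3 in each group, a missing call does not show that a marker stayed the same. In that fit 0.00342% of probe sets were called, 0% as higher and 0.00342% as lower, a single probe set with no gene name. The adjusted p was 0.99998 or more for each marker. At an unadjusted p under 0.05 there was 1 marker of 31, Hcls1, where 2.86% of all probe sets passed. Actg2 is in none of the lists and passed the unadjusted level as well. None of the 84 further genes passed either level, and their lowest unadjusted limma p belonged to Cd14, a co-receptor for bacterial lipopolysaccharide, with averages of 81.0 ± 14.1 on C1q arrays and 66.7 ± 3.54 on untreated arrays (SD, n = 3 each) and a fold change of 1.16.

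Over the 84 further genes the groups did not overlap for 9, 1 higher after C1q and 8 lower, where over all probe sets 1.88% did not overlap as higher and 5.18% as lower. The next genes were named for being among the 2 of smallest unadjusted p of their list, so that their separation is a description. C3ar1, the receptor for the complement fragment C3a, was the one of these 9 that was higher after C1q, at 1.17-fold (95% interval 0.947 to 1.43). Ramp2, which partners the adrenomedullin receptor, was estimated at 0.905-fold (95% interval 0.792 to 1.03). Tagln, described above, was estimated at 0.886-fold (95% interval 0.751 to 1.05), and its groups did not overlap either. Tbx18, a transcription factor gene of mural cells, was estimated at 0.887-fold (95% interval 0.748 to 1.05). Slc13a4, a sulphate transporter gene of the meninges, was estimated at 0.889-fold (95% interval 0.763 to 1.04). For the integrin gene Itgb3, estimated at 1.08-fold (95% interval 0.852 to 1.37), the groups overlapped.

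The 13 microglial markers comprised 7 with a higher and 6 with a lower mean after C1q, at a median log2 fold change of 0.06, where the median of all probe sets was -0.02. Without C1q array 1 the microglial median was 0.000453. Hcls1 averaged 125 ± 7.98 on C1q arrays and 87.6 ± 23.9 on untreated arrays (SD, n = 3 each), an estimated change of 1.38-fold (95% interval 1.10 to 1.74). This estimate was 1.24-fold without untreated array 1, the lowest of its 6 values, and 1.56-fold without untreated array 3, the highest untreated value. With array weights it was 1.13-fold, the lowest of the alternatives. Its adjusted p in limma lay between 0.515 and 1.00 over the alternatives examined. Trem2, the other microglial marker whose groups did not overlap, averaged 63.6 ± 0.627 on C1q arrays and 59.6 ± 1.57 on untreated arrays (SD, n = 3 each), an estimated change of 1.05-fold (95% interval 0.899 to 1.23). Estimates were 1.07-fold (95% interval 0.897 to 1.28) for Aif1, 1.07-fold (95% interval 0.909 to 1.27) for Csf1r, 1.04-fold (95% interval 0.880 to 1.24) for Cx3cr1 and 1.10-fold (95% interval 0.916 to 1.33) for Cd68. P2ry12 had the lowest estimate of the set, 0.886-fold (95% interval 0.719 to 1.09).

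Of 8 endothelial markers, 2 means were higher and 6 lower after C1q, their median being -0.06 on the log2 scale, and 3 of 3 mural means were lower, at a median of -0.04. Without C1q array 2 the endothelial means split into 4 higher and 4 lower, and without untreated array 2 the endothelial median was -0.03. Mural means were 1 higher and 2 lower without C1q array 2, without untreated array 2 or without untreated array 3, and also with array weights or quantile normalization, of which quantile normalization gave a mural median of -0.000887. Esam averaged 87.5 ± 12.1 on C1q arrays and 102 ± 10.3 on untreated arrays (SD, n = 3 each), an estimated change of 0.873-fold (95% interval 0.726 to 1.05). Pecam1 had an estimated change of 0.879-fold (95% interval 0.731 to 1.06), Cldn5 of 1.00-fold (95% interval 0.819 to 1.23), Pdgfrb of 0.956-fold (95% interval 0.824 to 1.11) and Acta2 of 0.974-fold (95% interval 0.919 to 1.03). Acta2, the marker of highest intensity, had the narrowest interval. Meningeal means were higher for 2 and lower for 3 of 5, at a median of -0.03, with estimates of 1.01-fold (95% interval 0.870 to 1.18) for Col1a1, 0.977-fold (95% interval 0.802 to 1.19) for Col1a2 and 0.980-fold (95% interval 0.842 to 1.14) for Col3a1. Their median turned positive without C1q array 1 (0.01), without C1q array 2 (0.05) and without untreated array 2 (0.08). Estimates for Pf4 and Ppbp were 0.988-fold (95% interval 0.825 to 1.18) and 1.01-fold (95% interval 0.843 to 1.22). The platelet median, 0.00056, was 0.10 without untreated array 2 and -0.06 without untreated array 1.

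The groups did not overlap for 3 of 31 markers, 2 of them higher after C1q, Hcls1 and Trem2, and 1 lower, Esam. Over all probe sets 7.06% did not overlap, 1.88% higher and 5.18% lower. Over all 31 markers 12 means were higher and 19 lower, a lower share of 61.3% where all probe sets had 62.0%. With quantile normalization 15 were higher and 16 lower and with median centring 14 and 17, while the lower share of all probe sets was 50.1% and 47.4%. The 95% interval lay within 1.5-fold either way for 30 of 31 markers, Hcls1 being the exception, and within 2-fold for all 31, all on the log2(intensity + 16) scale, with estimates from 0.873-fold for Esam to 1.38-fold for Hcls1. On that scale the changes of dim genes are understated. Lum, the dimmest, had a log2 fold change of -0.15 on that scale and of -0.37 with a pseudocount of 1, then below that of Esam at -0.23. Because 22 of them never exceeded the floor, an unknown share of each value was background, and these intervals bound neither the change of raw intensity of the dim genes nor that of mRNA.

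**Figure D4:**
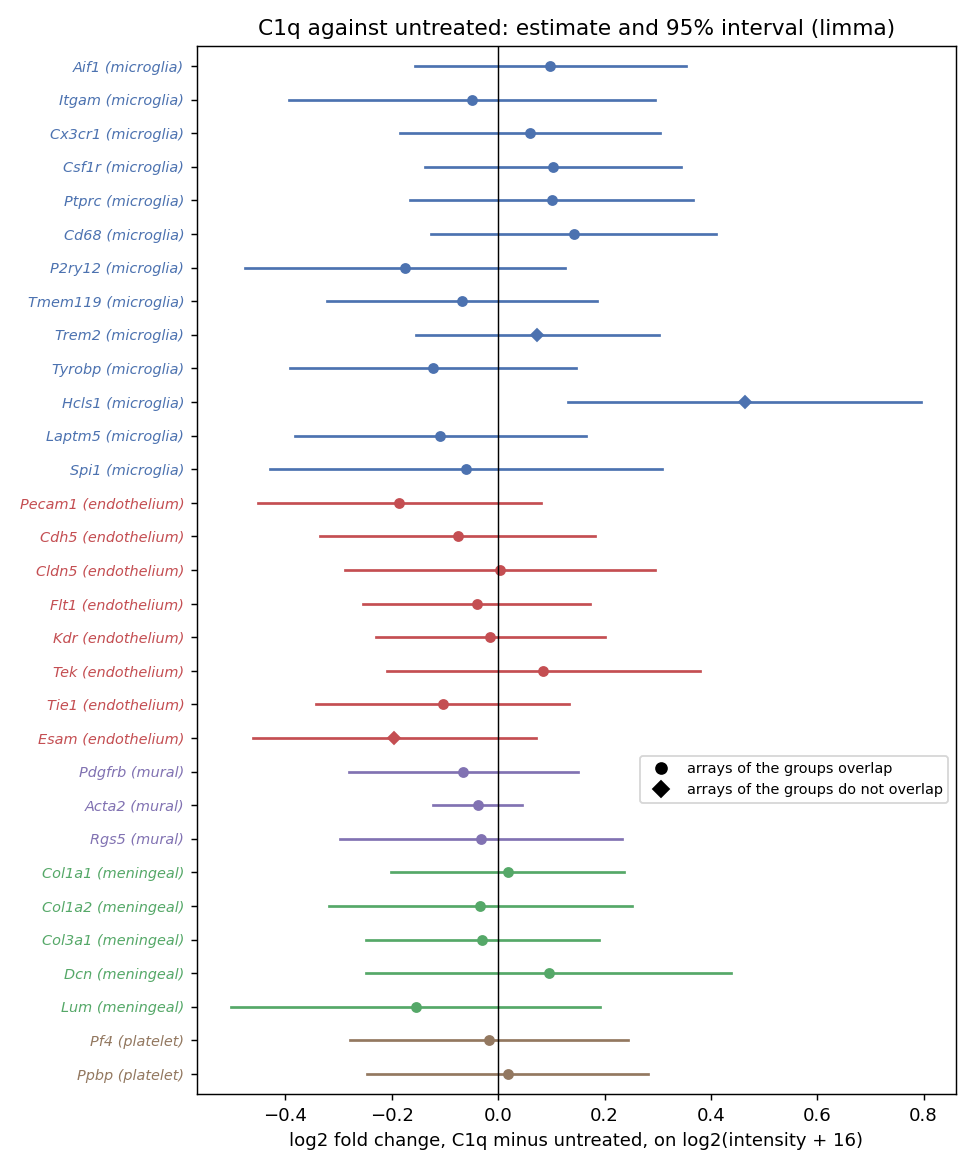
Log2 fold change of each measured marker, C1q minus untreated, from the limma fit on log2(intensity + 16), with its 95% interval; diamonds mark the 3 genes whose C1q and untreated arrays did not overlap. All intervals but that of Hcls1 include 0, and no marker passed an adjusted p of 0.05.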

How the data were processed

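The deposited table gave 1 intensity on a linear scale per probe set and array; how the authors summarised and normalized it is not given in the sources used here. Per the labels' protocols, biotinylated cRNA was made from column-purified RNA by the manufacturer's standard procedure for Affymetrix arrays. Of 29215 probe sets, the platform annotation named exactly 1 gene for 15310, several for 323 and none for 13582. All 31 measured markers matched RefSeq (GRCr8) by gene identifier. Where a gene had several such probe sets, the one with the highest mean log2(intensity + 16) was taken.

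The difference of C1q minus untreated was fitted on all 6 arrays with lmFit, and moderated by eBayes along an intensity trend (limma 3.58.1, R 4.3.3), with no filter on dim probe sets, since only 12 of the 31 markers exceeded a filter at the 40th percentile of the mean (an intensity of 94.4). Fold changes on the log2(intensity + 16) scale understate changes of dim genes. Signal over background is unknown, and precision is limited by the number of arrays.

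The 33 genes, the lists and the floor genes were chosen with earlier results of these data known. All 33 were to be named, with up to 3 genes of each further list above the floor on most arrays, up to 2 of smallest unadjusted p, and the neuron markers. Same-numbered C1q and untreated arrays correlated in their deviations at 0.00975, -0.308 and -0.0694, so the numbers were not taken as pairs. Alternatives covered scaling, pseudocount, filter, array weights, variance model, a replicate block, the floor, averaging a gene's probe sets and leaving out each array.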

Additional observations from a re-analysis of the deposited data

How the results depend on the processing

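No marker was called under any alternative, whether higher or lower. Of 29215 probe sets 0 were higher and 1 lower. With array weights 1 was higher and 10 lower, with the brightest 60% alone 0 were lower, and with the replicate number as a block (replicate block) 2 were lower. When each array was left out, calls numbered 0 to 3 for higher and 1 to 2 for lower, with the highest counts without untreated array 2. Markers above the floor on all 6 arrays and on at least 1 numbered 4 and 9. They numbered 13 and 18 with the floor at the 75th percentile of the genes of other organs, 1 and 1 at their highest value, and 9 and 15 at the 40th percentile of all probe sets. Leaving out each array gave 4 on every remaining array and 8 to 9 on at least 1. When each array was left out, the median log2 fold change ranged from 0.000453 to 0.0685 for microglia, from -0.082 to -0.0308 for endothelium, from -0.0542 to -0.0198 for mural cells, from -0.0568 to 0.0755 for meninges and from -0.0594 to 0.102 for platelets. Of 14 alternatives, 3 could not move a marker's fold change (the replicate block, the fit with no intensity trend and the mean of probe sets, each marker having 1). In the other 11 its sign was the same throughout for 15 of 31 markers and turned in at least 1 for 16, none of which was called. Values near the floor hold an unknown share of background, which limits what these arrays can show of rare cells.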

Other observations

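Of the 69 measured genes of other organs that set the floor, 8 exceeded it on at least 1 array. Prm1, which encodes a sperm protamine, read 1191, 1168 and 1249.5 on C1q arrays 1 to 3, against 1213, 1366 and 1251 on untreated arrays 1 to 3, and was far brighter than the rest. Crybb3, a lens crystallin gene, read 289, 261 and 316 on C1q arrays 1 to 3, against 294, 358 and 294 on untreated arrays 1 to 3. Ctrb1, which encodes the pancreatic enzyme precursor chymotrypsinogen, averaged 200.5 ± 13.5 on C1q arrays and 219 ± 19.1 on untreated arrays (SD, n = 3 each). The reason for these values was not tested, and the genes are named after their values were seen.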
